A study of Mus musculus with 24 samples.

Results

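The cells described here were untreated Ku70-null mouse embryonic fibroblasts, which were hybridised in both array sets of the study. They were found by their labels: the 3 untreated control arrays of the first set and the 3 untreated control arrays of the second set, 6 of the 24 arrays in all. All 6 carried RNA from immortalized fibroblasts of genotype Ku70-/-, given to the study as 1 cell line and grown in serum-containing medium. The first-set controls were labelled 4 hr, and the labels of the second-set controls gave no time. Each set held 3 control arrays described as biological replicates. The other 18 arrays, of the same genotype, held cells exposed to potassium bromate (KBrO3, an oxidant used to make oxidised bases in DNA) at 20 mM, bisphenol A (BPA, a plastics monomer with estrogenic activity) at 150 µM, or both, and collected at 4 or 24 hr. The first set held KBrO3 and KBrO3 with BPA, and the second set held BPA alone. Each set was scanned and extracted with its own scanner and software version, so the array set, the scanner, the software and the culture cannot be told apart in any difference between the 2 groups of controls.

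Ku70, encoded by Xrcc6, is a subunit of the Ku heterodimer that binds broken DNA ends and recruits DNA-PKcs for non-homologous end joining. Immortalized embryonic fibroblasts are matrix-producing mesenchymal cells that keep the Hox code of the body region they came from. They also answer inflammatory signals: NF-κB and C/EBP factors drive acute-phase proteins, chemokines and interleukin-6, and STAT and IRF factors drive interferon-induced genes.

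Expression was read on 1-colour arrays with 41174 noncontrol probes, of which 33670 could be paired with a current gene and 18780 protein-coding genes were covered. A level is the log2 processed signal minus the 75th percentile of its own array, and levels were compared between arrays for the same probe only. Values in parentheses are log2 differences, second minus first set, ± SE with 3 arrays in each group. Between 62.9% and 65.1% of noncontrol spots were well above background (the scanner software's detection flag) on the first-set control arrays, and between 77.0% and 78.3% on the second-set arrays. Replicates were closer in the first set: the correlation across probes ran from 0.995 to 0.996 within the first set, from 0.967 to 0.977 within the second set, and from 0.943 to 0.967 between sets. The median SD over 3 replicates was 0.0790 for first-set arrays and 0.316 for second-set arrays, over 24547 probes well above background on all 6 arrays. The 10 spike-in RNAs varied more among second-set arrays, furthest on replicate 2: their median was 0.56, -1.56 and -0.37 from the first-set mean on second-set replicates 1, 2 and 3, against 0.10, -0.18 and 0.08 on the first-set arrays.

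The targeted gene gave a signal in both cultures. Xrcc6, measured by 1 probe, read 0.02, 0.06 and 0.21 in the first set and 0.00, 0.14 and -0.36 in the second. The groups overlapped (log2 difference -0.17 ± 0.18 (SE), adjusted p = 0.491, limma with Benjamini-Hochberg adjustment over all probes tested). The part of the gene that was deleted is not given in the sources used here and no array held cells with intact Ku70, so this signal checks nothing about the genotype. Its partner Xrcc5, which encodes Ku80, read 1.29, 1.41 and 1.38 in the first set and 1.60, 1.87 and 1.53 in the second, without overlap but short of the threshold (0.31 ± 0.15, adjusted p = 0.167).

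The cells of both sets carried the fibroblast program. All 26 fibroblast genes looked at were well above background on all 6 arrays, among them the collagens Col1a1, Col1a2 and Col3a1, the intermediate filament Vim, the matrix protein Sparc and the receptors Pdgfra and Pdgfrb. Col1a2 read 8.48, 8.52 and 8.62 in the first set and 7.58, 7.35 and 7.72 in the second. Of 14 smooth muscle and myofibroblast genes 13 were detected in each set, and Acta2 (smooth muscle actin) read 4.60, 4.55 and 4.65 against 4.35, 4.59 and 4.71.

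Marker genes of other cell types were detected in part. Well above background on all 3 arrays of the first and of the second set were 6 and 10 of 13 blood cell genes, 6 and 10 of 12 endothelial, 7 and 10 of 14 epithelial, 5 and 9 of 14 adipocyte, 4 and 9 of 13 skeletal muscle, 7 and 11 of 13 neural or glial, 6 and 8 of 12 pluripotency, and 10 and 11 of 15 cartilage or bone genes. The second set was above the first in each of these lists, as it was over all genes: 13177 of 18780 protein-coding genes were detected on all 3 arrays of the first set and 15402 on all 3 of the second. The macrophage receptor gene Csf1r read -5.64, -5.0 and -4.24 in the first set and -4.19, -4.71 and -4.11 in the second, and the T cell gene Cd3e lay between -4.14 and -3.08 on all 6 arrays. Both overlapped between sets. Without overlap, 1 blood cell gene lay higher and 1 lower in the second set of 10 tested, and 5 adipocyte genes lay higher and 1 lower of 9. Over all tested genes 26.7% lay higher without overlap and 29.1% lower. Genes detected in the second set alone enter these counts, which are too small to read against those shares. The lower member of each list is given here, although most of the separated adipocyte genes lay higher. Cd14, a lipopolysaccharide co-receptor of myeloid cells that fibroblasts can also make, read 1.29, 1.27 and 1.33 in the first set and -0.55, -0.56 and -1.05 in the second (-2.01 ± 0.18, adjusted p = 0.00181). Fabp4, a fatty acid carrier of adipocytes and macrophages, read 5.62, 5.56 and 5.43 against 3.58, 3.05 and 2.85 (-2.37 ± 0.22, adjusted p = 0.00187). In RNA from whole cultures, fewer cells of a type and less RNA per cell cannot be told apart, and whether other cells contributed to these signals was not tested.

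Both cultures showed Y-linked expression. Ddx3y, an RNA helicase gene on the Y chromosome, read 1.44, 1.45 and 1.41 in the first set and 1.81, 1.64 and 1.30 in the second, and Eif2s3y read 2.44, 2.40 and 2.27 against 2.50, 2.05 and 2.21. The groups overlapped for both genes. The probe for Xist, the RNA that coats the inactive X chromosome, was not well above background on any first-set array and was on 2 second-set arrays, at levels between -8.06 and -6.57 in that set. Where 11% of all genes detected on all 6 arrays were called higher and 15.4% lower, 2 of 9 sex-linked genes, Kdm5d and Uty, both Y-linked histone demethylase genes, were called higher in the second set (0.76 ± 0.19 and 1.06 ± 0.18) and none lower, with a median difference of 0.17.

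Hox genes, which encode the transcription factors that record position along the body axis, were detected in part in both cultures. Of 38 Hox genes on the array 20 were well above background on all 6 arrays, and list counts below are over such members unless stated, because a gene that passed the filter through 1 set alone is likelier to read higher there. From the 5' end of the D cluster Hoxd13 read 3.41, 3.37 and 3.13 in the first set and 3.61, 3.81 and 3.53 in the second, and from that of the A cluster Hoxa11 read 3.03, 3.04 and 2.90 against 2.96, 2.74 and 3.04. Neither differed by the test (adjusted p = 0.139 and 0.713). Hoxa7 was the 1 member of the 20 called lower in the second set, at 2.38, 2.34 and 2.27 against 1.5, 0.73 and 0.89 (-1.29 ± 0.23, adjusted p = 0.00991). Called higher were 4 of the 20, with a median over the 20 of 0.33, where 11% of all genes detected on all 6 arrays were called higher and 15.4% lower, with a median of -0.08. Of 25 Hox genes tested, including those detected in 1 set, 6 were called higher, but 3 after leaving out any 1 first-set array or weighting each set by its spread, and 2 after normexp background correction with outlier spots set aside. Hoxa10, next to Hoxa11 in its cluster, read 0.55, 0.45 and 0.49 in the first set and 1.61, 1.49 and 1.92 in the second (1.18 ± 0.16, adjusted p = 0.00501). Hoxd11 read -1.74, -1.80 and -1.65 against -0.76, -0.90 and -0.38 (1.05 ± 0.18, adjusted p = 0.00872). The groups did not overlap for either gene.

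**Figure D1:**
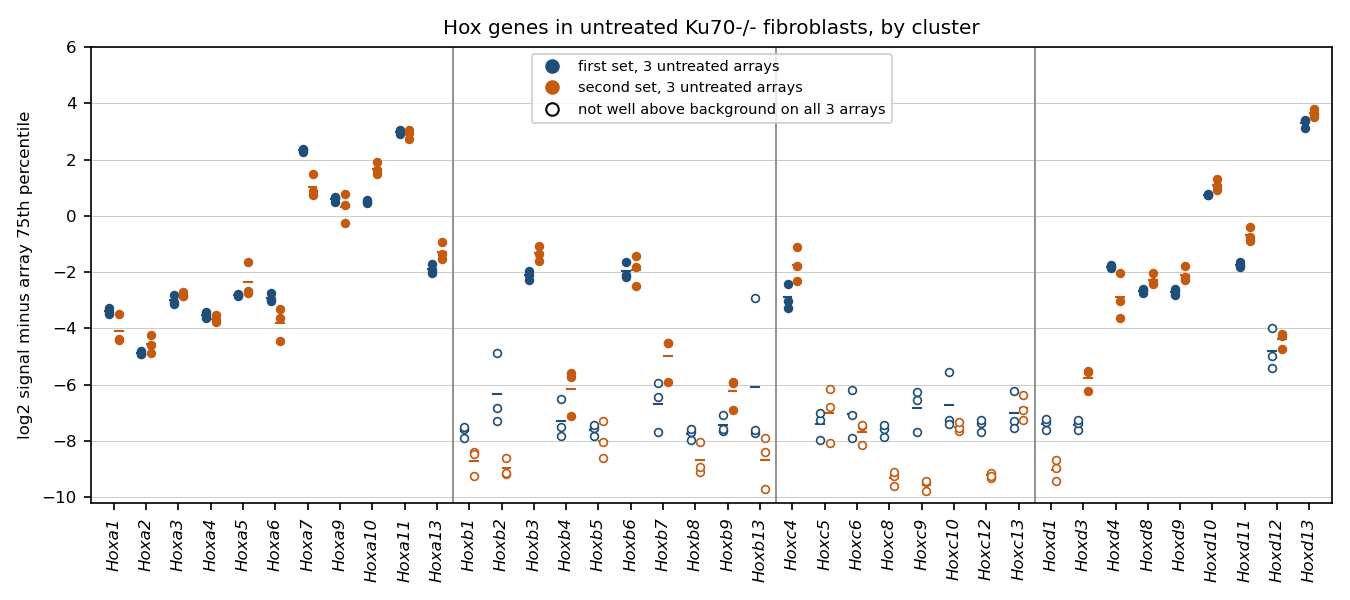
Level of each of the 38 measured Hox genes, 25 of them tested, on the 3 untreated arrays of the first set and of the second set, in log2 signal minus the array's 75th percentile, ordered by cluster. Each point is 1 array, short lines are means of 3, and open points mark genes not well above background on all 3 arrays of that set; Hoxa7 is the member called lower in the second set, and Hoxa10 and Hoxd11 are 2 of the 6 tested members called higher.

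Transcription factors of limb and regional identity outside the Hox clusters were called in both directions. Of 24 detected on all 6 arrays, 7 were called higher in the second set and 3 lower, against 11% and 15.4% of all such genes, with a median of 0.32. Pitx1, a hindlimb factor, read 1.43, 1.44 and 1.43 in the first set and -0.64, 0.07 and -0.40 in the second (-1.75 ± 0.20, adjusted p = 0.00347). Tbx3, a factor of limb bud margins, read 0.92, 0.97 and 0.85 against -0.39, -1.12 and -0.75 (-1.67 ± 0.21, adjusted p = 0.00401). In the other direction Dlx5, a homeobox gene of limb and bone, read -3.91, -4.23 and -4.42 against -2.51, -2.14 and -2.46 (1.82 ± 0.19, adjusted p = 0.00268). Tbx5, the forelimb factor, and Tbx15 were detected on all 6 arrays and overlapped between sets, at 1.60, 1.70 and 1.71 against 2.58, 1.62 and 2.13 for Tbx5.

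Across the genome the 2 control groups differed at more than 1 gene in 4. A gene was called where its brightest probe had an adjusted p below 0.05 and differed by over 1.5-fold, in a limma fit of the 6 arrays over 30324 probes well above background on all 3 arrays of at least 1 group. Of 15517 protein-coding genes tested, 2294 were higher in the second set (14.8%) and 2126 lower (13.7%), together 28.5%. The arrays did not overlap between sets, with the second set higher, for 26.7% of genes, and with the second set lower for 29.1%. Among the 13062 genes well above background on all 6 arrays, 1439 were higher (11%) and 2017 lower (15.4%), and those past 4-fold were mostly lower, 158 against 53. Over all 15517 tested genes 242 were higher past 4-fold and 209 lower, so this balance depended on the filter. Quantile normalisation gave 2492 higher and 1311 lower genes and cyclic loess 2552 and 1605, so the balance of directions depended on the scaling. Past 16-fold, among genes well above background on all 6 arrays, were 28 lower genes and 1 higher gene. Leaving out any 1 first-set array brought the calls to between 1052 and 1338 higher and between 910 and 1021 lower, which left 2 arrays in the tighter group.

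The difference moved with the signal. Probes were put in 10 bins of equal size by mean signal. In the brightest bin the median log2 difference was -0.47 and 35.7% of probes were called lower against 0.896% higher. In the dimmest bin it was -0.30, with 18.1% called lower and 5.82% higher, and from the second to the seventh bin it lay between 0.01 and 0.09 before falling to -0.07 and -0.19 in the next bins. Quantile normalisation and cyclic loess, which both fit the whole distribution of signals, brought the brightest bin to 0.02 and -0.05. In the dimmest bin cyclic loess widened the shift to -0.57. The median also fell with the probe's GC content, from 0.08 for probes of up to 35% GC to -0.29 for probes above 50%. For many of the lists below, values under these scalings are therefore given as well. The counts over all genes moved too. Of the 13062 protein-coding genes detected on all 6 arrays, 1635 were higher and 1208 lower under quantile normalisation, with a median of 0.04. Under cyclic loess 1524 were higher and 1518 lower, with a median of -0.01. Part of a list's turn under these scalings can be this shift of all genes.

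**Figure D2:**
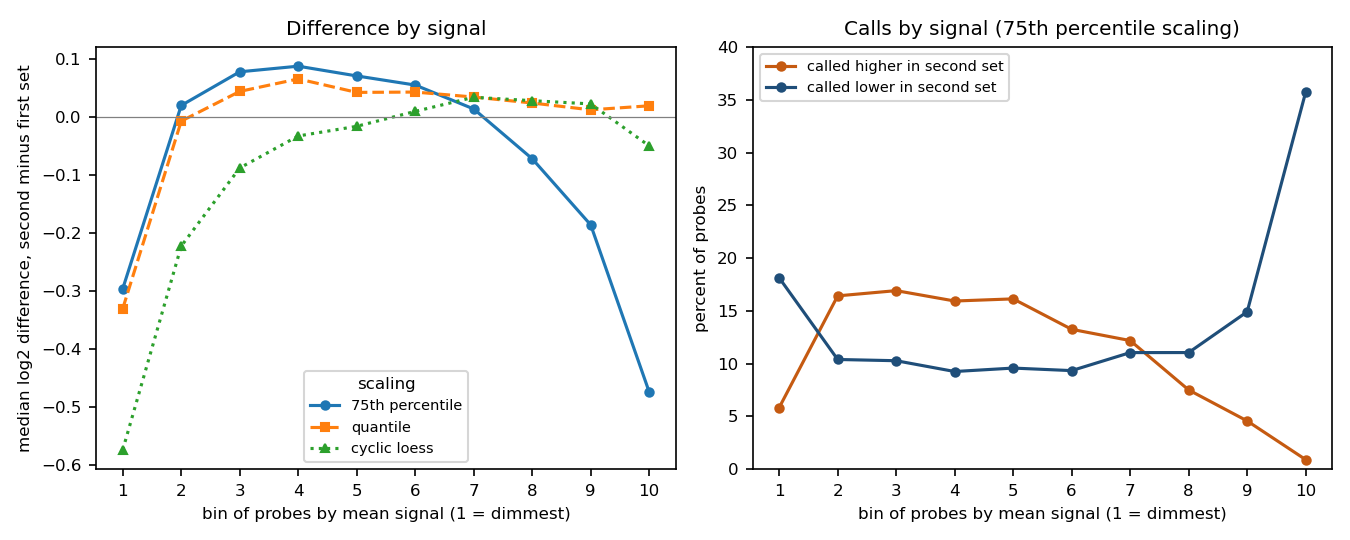
Median log2 difference, second minus first set, in 10 bins of probes ordered by mean signal under 3 scalings (left), and percent of probes called higher or lower under the 75th percentile scaling (right). The brightest bin lies at -0.47 under the 75th percentile scaling and near 0 under the other scalings, and 35.7% of its probes were called lower.

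Nearly all acute-phase, cytokine and NF-κB genes were lower in the second set. Of 35 tested, 33 were called lower and none higher, against 13.7% of all tested genes called lower, and the median difference was -3.28 against -0.01 for all genes tested. Among the 32 members detected on all 6 arrays 30 were called lower, with a median of -3.21, and 29 under either quantile normalisation or cyclic loess. Over the 35 tested members the median was -2.91 under quantile normalisation and -2.93 under cyclic loess, each with 32 members called lower. The first-set arrays put the list at a median level of 3.96 to 4.05, and the second-set arrays at -0.02 to 0.60. Not called were Il11 and Prg4, and Csf3 was not tested since none of the 6 arrays put it well above background.

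The promoters of members of this group and of the interferon group are shown because their members moved together and because NF-κB, C/EBP and IRF sites have short recognisable forms. Each is the 250 bases before the annotated start, read 5' to 3' on the gene's strand, from RefSeq (GRCm38.p6). Capitals mark matches on either strand to forms made of 2 stretches with any 2 bases between them. The NF-κB forms were GGGA with TTCC and GGG with TTTCC, which can overlap each other and themselves. The C/EBP form was TTGC with AA, and the interferon-stimulated response element form was TTTC with TTTC. Saa3 lies at chr7:46715677-46715926 on the minus strand, Lcn2 at chr2:32387740-32387989 on the minus strand, Il6 at chr5:30012864-30013113 on the plus strand, C3 at chr17:57228137-57228386 on the minus strand, Cxcl1 at chr5:90890995-90891244 on the plus strand, Ccl20 at chr1:83116516-83116765 on the plus strand, Cxcl10 at chr5:92348890-92349139 on the minus strand, Isg15 at chr4:156200819-156201068 on the minus strand and Irf7 at chr7:141266425-141266674 on the minus strand.
Saa3: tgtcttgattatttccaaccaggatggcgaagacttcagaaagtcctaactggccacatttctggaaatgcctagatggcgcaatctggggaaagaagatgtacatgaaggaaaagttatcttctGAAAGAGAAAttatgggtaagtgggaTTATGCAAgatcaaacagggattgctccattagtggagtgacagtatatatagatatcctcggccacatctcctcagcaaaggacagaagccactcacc
Lcn2: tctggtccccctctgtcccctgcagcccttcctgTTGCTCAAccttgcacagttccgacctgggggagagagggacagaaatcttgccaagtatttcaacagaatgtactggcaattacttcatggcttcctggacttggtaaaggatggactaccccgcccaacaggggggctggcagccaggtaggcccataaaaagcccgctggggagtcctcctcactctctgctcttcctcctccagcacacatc
Il6: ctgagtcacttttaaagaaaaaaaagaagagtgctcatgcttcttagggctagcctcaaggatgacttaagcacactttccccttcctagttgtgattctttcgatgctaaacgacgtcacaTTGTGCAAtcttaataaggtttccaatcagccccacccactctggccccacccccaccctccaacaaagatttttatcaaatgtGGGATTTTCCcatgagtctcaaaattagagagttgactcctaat
C3: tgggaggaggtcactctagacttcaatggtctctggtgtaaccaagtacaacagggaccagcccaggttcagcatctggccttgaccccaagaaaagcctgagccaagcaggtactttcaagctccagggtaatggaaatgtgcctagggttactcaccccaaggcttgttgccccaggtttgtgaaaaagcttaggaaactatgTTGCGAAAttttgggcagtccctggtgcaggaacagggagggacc
Cxcl1: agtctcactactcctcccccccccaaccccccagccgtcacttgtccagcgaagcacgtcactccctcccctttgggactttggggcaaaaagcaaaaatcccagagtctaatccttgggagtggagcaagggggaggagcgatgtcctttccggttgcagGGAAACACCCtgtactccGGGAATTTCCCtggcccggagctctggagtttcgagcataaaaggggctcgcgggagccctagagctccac
Ccl20: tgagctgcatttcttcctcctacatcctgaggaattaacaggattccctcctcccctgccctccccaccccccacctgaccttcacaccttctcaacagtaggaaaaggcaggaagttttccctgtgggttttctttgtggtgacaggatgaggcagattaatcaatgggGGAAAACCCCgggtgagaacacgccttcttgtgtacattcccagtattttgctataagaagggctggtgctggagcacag
Cxcl10: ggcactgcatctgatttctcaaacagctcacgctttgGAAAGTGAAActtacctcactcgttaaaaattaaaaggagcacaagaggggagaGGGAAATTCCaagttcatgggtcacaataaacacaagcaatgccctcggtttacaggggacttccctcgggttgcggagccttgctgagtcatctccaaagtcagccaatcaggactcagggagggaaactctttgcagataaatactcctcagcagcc
Isg15: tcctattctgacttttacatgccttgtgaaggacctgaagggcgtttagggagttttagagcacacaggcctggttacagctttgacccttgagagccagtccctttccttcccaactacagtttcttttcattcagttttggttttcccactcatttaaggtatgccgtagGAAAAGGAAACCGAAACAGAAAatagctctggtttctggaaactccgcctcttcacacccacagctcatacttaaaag
Irf7: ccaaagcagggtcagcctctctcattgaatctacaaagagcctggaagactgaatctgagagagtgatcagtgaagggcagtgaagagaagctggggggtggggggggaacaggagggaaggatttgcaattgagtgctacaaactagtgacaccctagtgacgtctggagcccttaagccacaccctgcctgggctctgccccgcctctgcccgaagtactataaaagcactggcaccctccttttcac

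Saa3 held a C/EBP match 99 to 92 bases before its start and a response element match 125 to 116 bases before it. Il6 held a C/EBP match 128 to 121 bases and an NF-κB match 44 to 35 bases before its start. Cxcl1 held NF-κB matches at 89 to 80 and 71 to 61 bases, and Isg15 held 3 overlapping response element matches between 78 and 57 bases. Irf7 held no match to these forms. Of 22 called-lower members of the acute-phase group that had a promoter entry, 7 (31.8%) held an NF-κB form and 11 (50%) a C/EBP form, where 2.59% and 10.8% of 27025 genes did. The response element form was in 1 of these 22. Of 26 called-lower interferon-induced genes with an entry, 12 (46.2%) held the response element form against 3.46% of all genes, 3 held an NF-κB form and 1 a C/EBP form. A match describes letters in this window and is not a measured binding site. Both lists were written from general knowledge of such genes, and nearly all of their tested members were called lower. These shares therefore describe the lists and are no evidence about the arrays. Members that were not called were not counted for comparison.

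Acute-phase proteins showed the widest gaps. Saa3, a serum amyloid A made outside the liver, read 4.56, 4.48 and 4.51 in the first set and -3.98, -3.41 and -4.62 in the second. That is a log2 difference of -8.52 ± 0.30 (adjusted p = 0.000213), or 367-fold. Lcn2, the iron-siderophore carrier lipocalin-2, read 2.91, 2.95 and 3.09 against -4.76, -3.03 and -4.57 (-7.10 ± 0.45, adjusted p = 0.000815). Hp, the haemoglobin scavenger haptoglobin, read 7.81, 7.74 and 7.82 against 2.24, 2.49 and 2.22 (-5.47 ± 0.14, adjusted p = 0.000196). For all 3 genes the lowest first-set array lay above the highest second-set array by more than 5 log2 units. Saa1 and Saa2 were lower as well (-4.23 ± 0.20 and -2.95 ± 0.36), although serum amyloid genes are alike in sequence and their probes may share target. Orm1, an orosomucoid, was well above background on 1 second-set array and was called lower (-4.33 ± 0.57). The size of that difference is uncertain, because the other second-set arrays did not detect Orm1 well above background. Serpina3n, a protease inhibitor of the acute phase that was outside the list, read -0.47, -0.59 and -0.44 against -6.14, -4.90 and -5.19 (-4.91 ± 0.32, adjusted p = 0.000879).

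Complement genes followed. C3, the central complement component, read 8.10, 8.05 and 8.14 in the first set and 3.81, 4.69 and 4.16 in the second (-3.88 ± 0.24, adjusted p = 0.000732). Cfb, factor B of the alternative pathway, read 3.45, 3.43 and 3.55 against -1.40, -0.84 and -1.20 (-4.62 ± 0.18, adjusted p = 0.000219). C4b of the classical pathway was lower by a log2 difference of -3.14 ± 0.15. The groups were fully apart for all 3.

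Secreted cytokines and chemokines were lower in the second set as well. Il6, the cytokine that induces liver acute-phase genes, read 0.40, 0.45 and 0.33 in the first set and -5.25, -4.74 and -4.86 in the second (-5.34 ± 0.17, adjusted p = 0.000213). Ccl2, the monocyte chemokine MCP-1, read 7.83, 7.84 and 7.81 against 2.82, 3.03 and 2.40 (-5.08 ± 0.19, adjusted p = 0.000219). Ccl7, its neighbour and relative, was lower (-4.68 ± 0.36), as were Ccl20 (-4.28 ± 0.27) and Ccl5 (-4.17 ± 0.20). The neutrophil chemokine Cxcl1 read 4.32, 4.27 and 4.11 against 0.69, 0.68 and -0.02 (-3.78 ± 0.23, adjusted p = 0.000704), and Cxcl5 was lower (-3.51 ± 0.21). Csf2 (GM-CSF) and Cxcl2 were well above background on all 3 first-set arrays and on no second-set array, which puts Csf2 at least 8.33-fold and Cxcl2 at least 4.95-fold lower in the second set. The smallest called difference in the list was that of Cxcl12, the stromal chemokine SDF-1, at -0.70 ± 0.21 (adjusted p = 0.0482). It was -0.09 under cyclic loess and turned to 0.02 under quantile normalisation.

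Regulators and receptors of the same response were lower too. The transcription factor Cebpd read 7.10, 7.04 and 6.99 in the first set and 3.44, 3.85 and 3.48 in the second (-3.45 ± 0.16, adjusted p = 0.00033), and Cebpb was lower (-1.61 ± 0.14). Bcl3, a nuclear IκB protein, was lower (-3.32 ± 0.16), as were Nfkbia, which encodes IκBα (-1.87 ± 0.20), and Nfkbiz (-1.54 ± 0.27). The feedback inhibitors Socs3 and Tnfaip3 were lower (-1.98 ± 0.16 and -0.83 ± 0.19). Il1rl1, the IL-33 receptor, read 6.39, 6.34 and 6.31 against 2.75, 3.47 and 2.97 (-3.28 ± 0.21). The adhesion molecule genes Icam1 and Vcam1 differed by less, at -1.89 ± 0.15 and -1.18 ± 0.13, still without overlap.

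**Figure D3:**
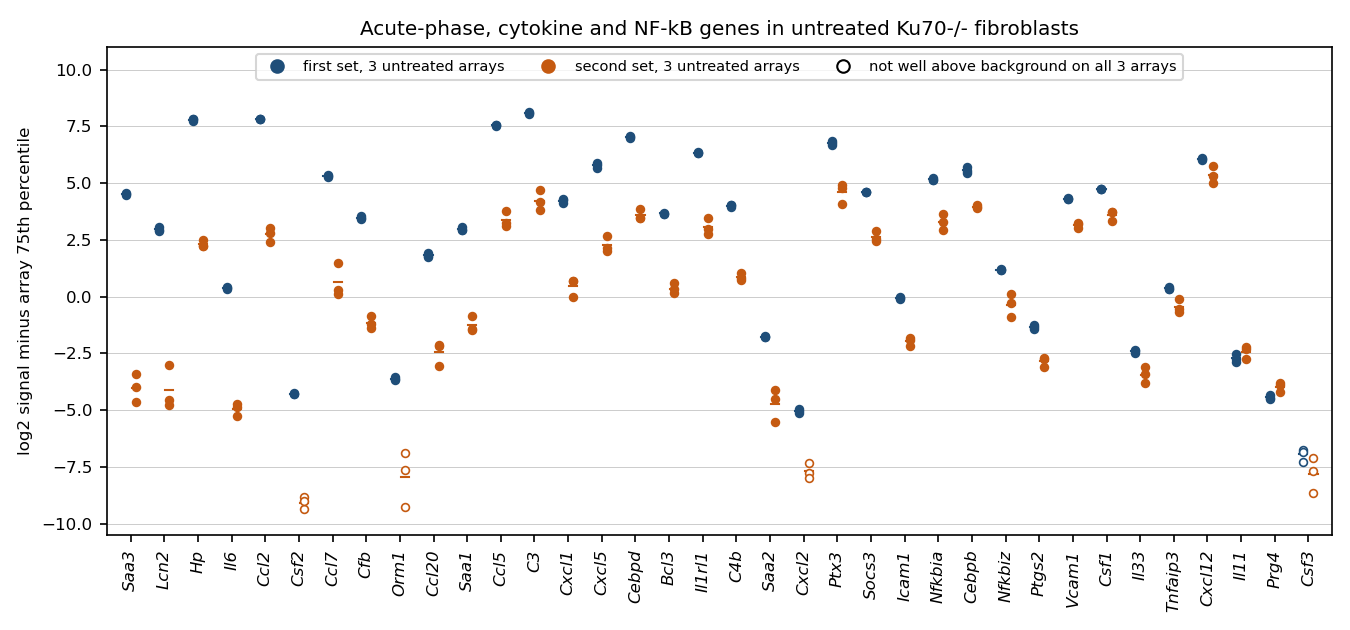
Level of each acute-phase, cytokine and NF-κB gene on the 3 untreated arrays of each set, in log2 signal minus the array's 75th percentile. Each point is 1 array, short lines are means of 3, and open points mark genes not well above background on all 3 arrays of that set; Saa3 has the widest gap, 4.48 to 4.56 in the first set against -4.62 to -3.41 in the second.

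Interferon-induced genes were lower in the second set as a group, by less. Of 40 tested, 35 were called lower and none higher, against 13.7% of all tested genes called lower and 35.7% of probes in the brightest bin, with a median of -1.26. The median was -0.91 under quantile normalisation, with 22 called lower, and -0.95 under cyclic loess, with 25. Cxcl10, a T cell chemokine induced by interferon and by NF-κB, read 5.21, 5.20 and 5.10 in the first set and 2.10, 2.63 and 1.86 in the second (-2.98 ± 0.22, adjusted p = 0.00117). Zbp1, a sensor of Z-form nucleic acids, read 4.34, 4.30 and 4.27 against 1.24, 1.68 and 1.29 (-2.90 ± 0.16, adjusted p = 0.000634). Irf7, the regulator that amplifies interferon production, read 2.88, 2.76 and 2.99 against 0.38, 1.01 and 1.13 (-2.04 ± 0.23, adjusted p = 0.00308). The groups were apart for all 3.

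Antiviral effectors and antigen presentation genes made up the rest. Isg15, the ubiquitin-like modifier, read 6.64, 6.76 and 6.73 in the first set and 5.30, 4.79 and 4.84 in the second (-1.73 ± 0.18, adjusted p = 0.00256). Stat2, which carries the interferon signal, was lower (-1.58 ± 0.15). The immunoproteasome genes Psmb8 and Psmb9 were lower (-1.26 ± 0.14 and -1.37 ± 0.12). The MHC class I gene H2-K1 and the light chain gene B2m were called lower (-1.19 ± 0.14 and -0.89 ± 0.21) but turned to 0.02 and 0.05 under quantile normalisation. H2-K1 and H2-D1 are near-identical genes, so their values are uncertain. Ifit1, Ifit2, Ifih1, Irf9 and Trim25 were not called, and Ifit2 read 1.01, 0.99 and 0.91 against 1.20, 1.32 and 1.45.

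Matrix-degrading enzymes and their inhibitors held some of the largest differences. Of 36 matrix remodelling genes, 15 were called lower and 3 higher, against 15.4% and 11% of all genes detected on all 6 arrays, with a median of -0.39 that became -0.10 under quantile normalisation and -0.18 under cyclic loess. Mmp13, a collagenase, read 2.49, 2.43 and 2.38 in the first set and -2.40, -2.25 and -2.23 in the second (-4.73 ± 0.13, adjusted p = 0.000196). Mmp3 (stromelysin-1) read 6.62, 6.59 and 6.59 against 2.81, 3.16 and 2.55 (-3.76 ± 0.19, adjusted p = 0.000379), and the inhibitor Timp1 was lower (-2.40 ± 0.31). Mmp2 (gelatinase A) read 3.58, 3.53 and 3.77 against 3.80, 4.07 and 3.89 and was not called (adjusted p = 0.18). Higher were Eln, which encodes elastin, at -2.22, -2.20 and -1.97 against -0.11, -0.24 and -0.01 (2.01 ± 0.15, adjusted p = 0.00117), and Lox, which cross-links elastin and collagen, by 0.95 ± 0.13.

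Collagens were called in both directions. Of 24, 3 were called higher and 4 lower, near the 11% and 15.4% of all genes detected on all 6 arrays, with a median of -0.25. Under quantile normalisation and cyclic loess 5 were higher and 1 lower, and the median turned to 0.26 and 0.05. Col14a1, a fibril-associated collagen outside these 24, was well above background on 1 first-set array and all second-set arrays, at -5.59, -5.20 and -5.43 against -0.03, -1.41 and -1.25 (4.51 ± 0.38, adjusted p = 0.00154). Its first-set levels lay near the lowest signal detected in that set, -5.64 to -5.30, so the size of this difference is uncertain. Col8a2 and Col11a1 were higher by 1.67 ± 0.28 and 1.59 ± 0.14. The fibrillar collagens Col1a1, Col1a2 and Col3a1 were called lower (-0.99 ± 0.19, -0.99 ± 0.15 and -0.82 ± 0.18), but were 0.16, 0.41 and 0.26 under quantile normalisation. Col18a1 was called lower (-1.62 ± 0.15) and was -1.51 and -1.49 under quantile normalisation and cyclic loess. Over the whole fibroblast list 12 of 26 genes were called lower and 1 higher, against the same 15.4% and 11%, with a median of -0.60 that moved to 0.15 under quantile normalisation and -0.06 under cyclic loess. Members that stayed far below 0 under each scaling were the proteoglycans Dcn and Lum. Dcn read 8.22, 8.30 and 8.36 against 4.81, 4.83 and 4.90 (-3.45 ± 0.13, adjusted p = 0.000219), and Lum 5.45, 5.43 and 5.36 against 2.19, 2.08 and 2.17 (-3.27 ± 0.13). Twist1, a mesenchymal transcription factor, was the member called higher (1.08 ± 0.23). In the smooth muscle and myofibroblast list 1 gene was called higher and 1 lower of 13, with a median of -0.23 that turned to 0.25 under quantile normalisation and 0.14 under cyclic loess. The cartilage and bone list had 2 higher and 2 lower of 10 and a median of 0.046, and 2 lower with 1 higher under quantile normalisation and 0 higher under cyclic loess. Its lower members included Spp1 (osteopontin), at 6.46, 6.46 and 6.44 against 3.03, 3.33 and 2.77 (-3.41 ± 0.18, adjusted p = 0.000449).

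Secreted regulators of growth factor signalling were called about as often as other genes. Of 38 IGF, TGF-β and Wnt genes, 4 were called higher and 6 lower, against 11% and 15.4% of all genes detected on all 6 arrays, and under quantile normalisation and cyclic loess alike 7 were higher and 5 lower. Lower members included Sfrp1, a Wnt antagonist (-2.65 ± 0.21). Grem1 and Nog, both BMP antagonists, were lower (-1.85 ± 0.42 and -1.44 ± 0.35). Higher was Igfbp5, an IGF binding protein, at -2.72, -2.81 and -2.92 against -0.81, -0.75 and -0.07 (2.27 ± 0.23, adjusted p = 0.00233). The BMP target Id1 and the inhibitory Smad7 were also higher, by 0.76 ± 0.18 and 0.86 ± 0.16, and Igf1 and Igfbp2 overlapped between sets.

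The largest differences among genes detected on all 6 arrays were also named by rank, inside or outside these lists. The 12 with the largest called difference downward were Saa3, Lcn2, Hp, Ch25h, Prl2c3, Il6, Prl2c5, Ccl2, Unc93a, Serpina3n, Slpi and Mmp13. Ch25h, which makes the antiviral oxysterol 25-hydroxycholesterol, read 2.14, 2.16 and 2.11 against -3.43, -2.91 and -3.50 (-5.41 ± 0.19, adjusted p = 0.000213). Slpi, a secreted inhibitor of leukocyte proteases, read 3.36, 3.42 and 3.43 against -1.31, -1.12 and -1.88 (-4.84 ± 0.22, adjusted p = 0.000311). The proliferin genes Prl2c3 and Prl2c5 were lower (-5.40 ± 0.33 and -5.19 ± 0.33). They belong to a cluster of near-identical copies that a probe may not tell apart, so the member is uncertain.

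The 12 with the largest called difference upward were Gng13, Tspan18, Nrep, Fam180a, Hmcn1, Rflna, Cfhr2, Hpgd, Epha3, Fgd4, Rasl11b and Slc26a7, from 4.2 to 2.78. Several were dim in the first set, such as Hmcn1 with a mean of -4.98, near that set's lowest detected signal of -5.64 to -5.30. Others such as Hpgd, at -2.08, lay well above it. Under normexp background correction with outlier spots set aside the 12 differences were smaller, from 3.22 for Gng13 to 1.62 for Hmcn1. Gng13, a G protein γ subunit known from taste and olfactory cells, read -4.18, -4.18 and -4.33 in the first set and 0.65, 0.02 and -0.75 in the second (4.2 ± 0.35, adjusted p = 0.00152). Tspan18, a tetraspanin, read -4.78, -4.79 and -4.75 against 0.13, -1.08 and -1.42 (3.98 ± 0.39, adjusted p = 0.00223). Hpgd, which inactivates prostaglandins, read -2.02, -2.01 and -2.21 against 0.52, 0.93 and 1.22 (2.97 ± 0.21, adjusted p = 0.00101). Epha3, an ephrin receptor of mesenchyme, read -3.21, -3.17 and -3.12 against -0.44, -0.45 and 0.06 (2.90 ± 0.18, adjusted p = 0.000794). No second-set array overlapped the first set at any of the 12.

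Some genes were detected in 1 set only. In the first set alone were 18 genes, all called lower in the second. Mettl7b, a methyltransferase of lipid droplets and endoplasmic reticulum, read -3.32, -3.40 and -3.42 and was at least 15.5-fold lower in the second set. Camp, the antimicrobial peptide cathelicidin, was at least 12.6-fold lower, Wfdc21 at least 11.6-fold, Bnc1 at least 6.18-fold and Oog1 at least 5.99-fold. In the second set alone were 1478 genes, of which 707 were called higher and 12 lower, and 112 of the higher ones were at least 2-fold higher. Olfr772, an olfactory receptor gene, read -3.23, -3.54 and -3.41 and was at least 4.15-fold higher in the second set, and Slc6a14, an amino acid transporter gene, at least 3.09-fold. Nebl, Mmp15, Scn3b and Drd5 followed, at least 2.26, 1.68, 1.46 and 1.41-fold higher. The lowest level that counted as well above background was itself lower in the second set, between -7.56 and -7.17 against -5.64 to -5.30, so a gene detected in the second set alone could lie below what the first set resolved.

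In marker lists of other cell types most genes were not detected on all 6 arrays or not called. Of those detected on all 6, called higher and lower in the second set were 1 and 1 of 5 adipocyte genes, 0 and 1 of 6 blood cell genes, 1 and 1 of 6 endothelial genes, 1 and 1 of 7 epithelial genes, 0 and 1 of 4 skeletal muscle genes, 1 and 1 of 7 neural or glial genes, and 0 and 1 of 6 pluripotency genes, counts too small to read against the shares over all genes. In the neural list Map2, a microtubule-associated protein, read -0.49, -0.57 and -0.70 against 1.10, 1.40 and 1.60 (1.96 ± 0.17, adjusted p = 0.00181). In the endothelial list Flt1, a VEGF receptor, read 2.54, 2.58 and 2.43 against 0.88, 0.22 and 1.11 with its brightest probe (-1.78 ± 0.25, adjusted p = 0.00525).

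Many hypoxia and glycolysis genes were called lower. Of 31, 18 were called lower and none higher, against 15.4% of all genes called lower, with a median of -0.96. The median was -0.45 under quantile normalisation, with 13 called lower, and -0.59 under cyclic loess, with 15. Slc16a3, the lactate exporter MCT4, read 0.12, 0.11 and 0.15 in the first set and -1.73, -1.77 and -1.71 in the second (-1.86 ± 0.12, adjusted p = 0.000879). Hk2, the inducible hexokinase, read 0.85, 0.79 and 0.76 against -1.20, -0.92 and -0.39 (-1.64 ± 0.23, adjusted p = 0.00522). The glucose transporter Slc2a1 was lower (-1.20 ± 0.14), as were the glycolytic enzyme genes Ldha (-1.21 ± 0.17) and Gapdh (-1.42 ± 0.16). Vegfa and Car9, both hypoxia targets, overlapped between sets.

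Growth-response genes were lower in part. Of 31 immediate early genes, 14 were called lower and 3 higher, against 15.4% and 11% of all genes, with a median of -0.35. Under quantile normalisation 10 were lower and 6 higher and under cyclic loess 11 and 5, with medians of 0.0046 and -0.0018. Junb read 6.59, 6.60 and 6.57 against 4.91, 5.08 and 4.52 (-1.75 ± 0.18, adjusted p = 0.00253), and both Jun (-1.21 ± 0.14) and Fosl1 (-1.67 ± 0.18) were lower. Fos itself overlapped, at -1.73, -1.73 and -1.85 against -1.43, -0.94 and -1.90. Dusp6, an ERK phosphatase induced by ERK, was lower (-1.47 ± 0.14), while its relative Dusp4 was higher by 1.22 ± 0.18.

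The bright housekeeping families depended on the scaling. Against 15.4% of all genes detected on all 6 arrays and 35.7% of probes in the brightest bin, ribosomal protein genes had 27 of 30 called lower and none higher, with a median of -1.02, but the median was -0.05 under quantile normalisation, where none was called lower, and -0.32 under cyclic loess, where 2 were. Rplp0 read 8.86, 8.74 and 8.88 against 7.15, 6.76 and 7.26 (-1.77 ± 0.17). Oxidative phosphorylation genes had 12 of 30 called lower and none higher, with a median of -0.68. Under quantile normalisation and cyclic loess 1 was called lower, with medians of -0.13 and -0.16. The heat shock list had 5 of 17 lower and none higher, with a median of -0.50 that was 0.057 under quantile normalisation and -0.0047 under cyclic loess, each with 1 lower.

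**Figure D4:**
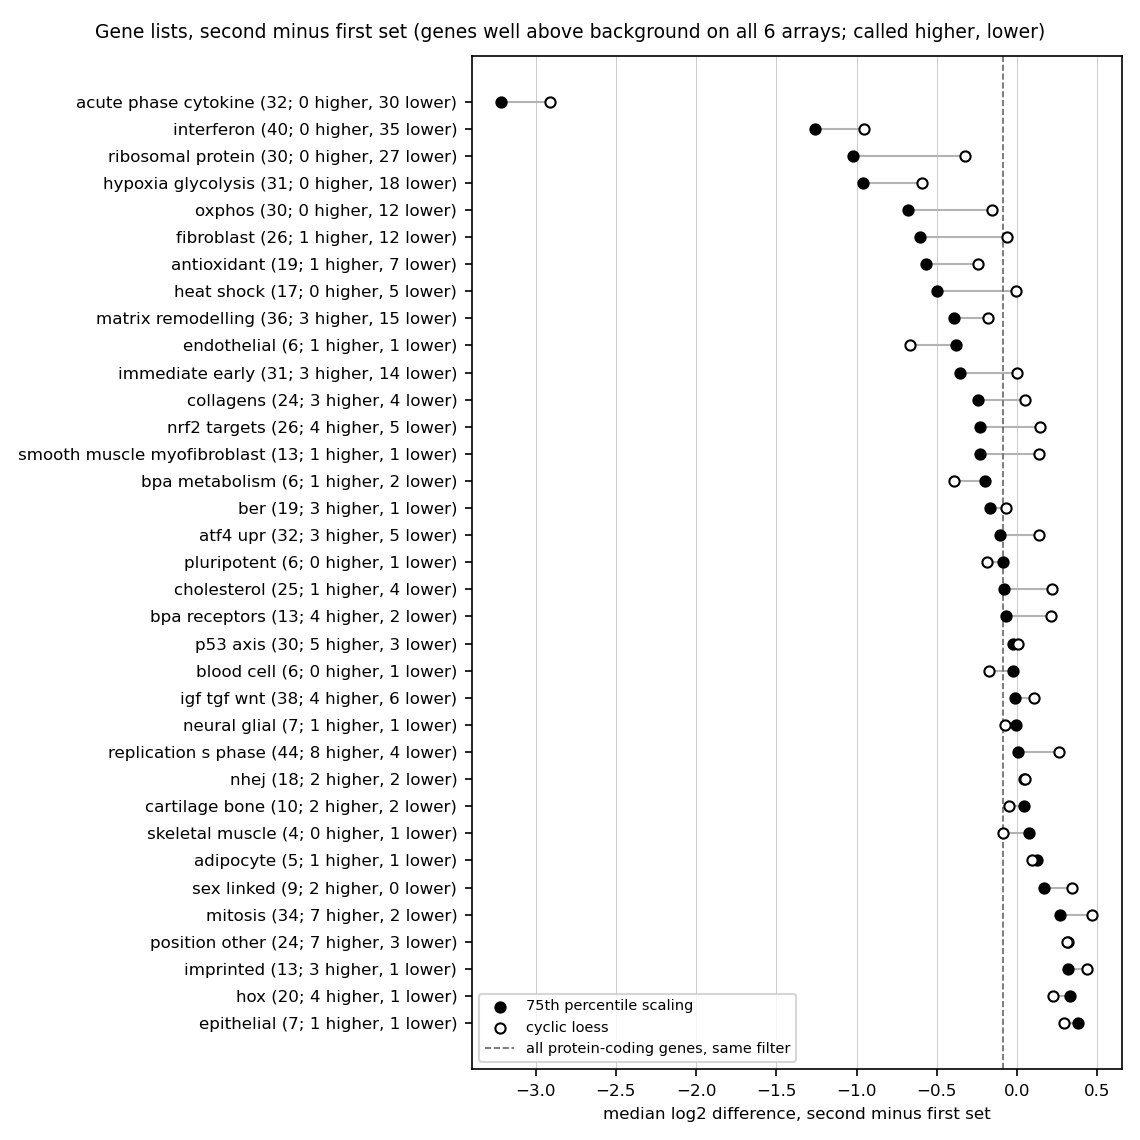
Median log2 difference, second minus first set, for each gene list under the 75th percentile scaling (filled) and cyclic loess (open), over genes well above background on all 6 arrays, with the number of these genes and of those called. The dashed line is the median of all such protein-coding genes, -0.08; acute-phase and interferon genes stay lower under both scalings, and ribosomal protein genes move from -1.02 to -0.32.

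Antioxidant genes were lower in some members. Of 19, 7 were called lower and 1 higher, against 15.4% and 11% of all genes, with a median of -0.57. Quantile normalisation gave a median of -0.21 with 4 lower, and cyclic loess -0.25 with 6. Sod2, the mitochondrial superoxide dismutase and an NF-κB target, read 6.52, 6.52 and 6.53 against 3.95, 3.95 and 3.50 (-2.73 ± 0.17, adjusted p = 0.000784). Mt2, a metallothionein, read 7.41, 7.48 and 7.54 against 5.24, 4.67 and 3.54 (-2.99 ± 0.42, adjusted p = 0.00525), while Sod1 was lower (-1.05 ± 0.15). NRF2 targets had 4 higher and 5 lower of 26, with a median of -0.23. That became 6 and 0 under quantile normalisation and 6 and 1 under cyclic loess, with medians of 0.18 and 0.15. Cat, which encodes catalase, read 0.28, 0.20 and 0.16 against 1.70, 1.81 and 1.54 (1.47 ± 0.14, adjusted p = 0.00206), and Nqo1 was higher by 0.90 ± 0.17. Hmox1 was not called, at 2.94, 2.90 and 3.06 against 2.50, 2.46 and 2.24. Among genes of ATF4 and the unfolded protein response 3 were higher and 5 lower of 32, which turned to 6 and 1 under quantile normalisation and 7 and 1 under cyclic loess. The cholesterol synthesis list had 1 higher and 4 lower of 25, which turned to 4 and 1 under either scaling. Neither list has a direction that holds across the scalings.

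Cell cycle genes held calls in both directions. Of 34 mitosis genes, 7 were called higher and 2 lower, against 11% and 15.4% of all genes detected on all 6 arrays, with a median of 0.27. Under quantile normalisation 13 were higher and under cyclic loess 10, with none lower and medians of 0.53 and 0.47. Of all 13062 such genes 1635 were higher and 1208 lower under quantile normalisation, and 1524 and 1518 under cyclic loess. Kif11, a spindle motor, read -0.52, -0.47 and -0.54 in the first set and 0.53, 1.10 and 1.22 in the second (1.46 ± 0.21, adjusted p = 0.00579), and Ttk, a checkpoint kinase, was higher by 1.24 ± 0.18. Of 44 replication genes 8 were higher and 4 lower, with a median of 0.01, and under quantile normalisation and cyclic loess 10 and 9 were higher and none lower, with medians of 0.31 and 0.26. Rrm2, the ribonucleotide reductase subunit of S phase, read 1.17, 1.01 and 0.97 against 1.98, 2.35 and 2.54 (1.24 ± 0.19, adjusted p = 0.00646). Mki67, a marker of cycling cells, overlapped at 4.79, 4.75 and 4.69 against 4.63, 5.09 and 4.62.

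In the p53 axis 5 of 30 genes were called higher and 3 lower, near the 11% and 15.4% over all genes detected on all 6 arrays, with a median of -0.02. Cdkn2a, which encodes p16INK4a and p19ARF, read 3.91, 3.91 and 4.01 in the first set and 1.86, 1.06 and 1.30 in the second (-2.54 ± 0.23, adjusted p = 0.00181). Trp53 overlapped, at 0.40, 0.66 and 0.76 against 0.76, -0.06 and -0.56, and so did its targets Cdkn1a and Mdm2. Ccng1, another p53 target, was higher by 1.22 ± 0.24 and Fas lower (-1.05 ± 0.14).

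DNA repair genes were called about as often as other genes. In base excision repair, the pathway that removes oxidised bases, 3 of 19 genes were called higher and 1 lower, where 11% and 15.4% of all genes detected on all 6 arrays were, and the median was -0.17. Ogg1, the glycosylase for 8-oxoguanine, read 1.22, 1.17 and 1.02 in the first set and 0.76, 0.47 and 0.32 in the second (-0.62 ± 0.17, adjusted p = 0.0347). Polb, the polymerase that fills the gap, read 0.07, 0.16 and 0.19 against 0.65, 1.02 and 0.67 (0.64 ± 0.16, adjusted p = 0.0272), and Fen1 and Parp2 were higher by 0.82 ± 0.23 and 0.69 ± 0.18. The scaffold Xrcc1 overlapped between sets, at 3.38, 3.40 and 3.39 against 3.04, 3.44 and 2.58. In end joining and its relatives 2 of 18 were higher and 2 lower, with a median of 0.04. Higher were Xrcc4 (0.71 ± 0.19) and Dntt, a template-independent polymerase, at -4.87, -4.21 and -3.82 against -2.34, -2.77 and -2.17 (1.87 ± 0.31). Lower were Dclre1c, which encodes Artemis, and Polm (-1.0 ± 0.26 and -0.75 ± 0.12). Prkdc, the kinase that Ku recruits, read -1.23, -1.25 and -1.16 against -1.16, -0.91 and -0.87 and was not called.

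Some genes through which BPA is sensed or cleared differed between the controls. Of 13 receptor and partner genes, 4 were called higher and 2 lower, against 11% and 15.4% of all genes detected on all 6 arrays, with a median of -0.07 that turned to 0.25 under quantile normalisation and 0.21 under cyclic loess. Esr1, estrogen receptor α, was dim and overlapped, at -2.67, -2.76 and -2.77 against -2.09, -3.73 and -2.70. Esrrg, the estrogen-related receptor γ that binds BPA, read -3.34, -3.27 and -3.49 against -1.59, -1.97 and -2.33 (1.40 ± 0.22, adjusted p = 0.0069), and Gper1, a membrane estrogen receptor, was higher by 0.79 ± 0.19. Ahr, the aryl hydrocarbon receptor, read 2.87, 3.02 and 2.97 against 1.97, 2.43 and 1.91 (-0.85 ± 0.18, adjusted p = 0.0178), whereas its partner Arnt was higher by 1.07 ± 0.17. The mineralocorticoid receptor gene Nr3c2 was higher by 1.82 ± 0.23. In BPA metabolism 1 of 6 genes was higher and 2 were lower. Sult1a1, a phenol sulfotransferase, read -4.92, -4.75 and -4.74 against -2.70, -2.35 and -2.85 (2.17 ± 0.18, adjusted p = 0.00149). Cyp2f2, a cytochrome P450 gene, read 2.94, 2.99 and 2.92 against 0.42, 0.13 and -0.51 (-2.94 ± 0.25, adjusted p = 0.00162).

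Imprinted genes, expressed from 1 parental copy, had 3 members higher and 1 lower of 13, against 11% and 15.4% of all genes detected on all 6 arrays, with a median of 0.32. Mest read 2.96, 2.94 and 2.78 in the first set and 4.14, 4.66 and 4.18 in the second (1.43 ± 0.18, adjusted p = 0.00434). Grb10 and Plagl1 were higher by 0.79 ± 0.14 and 0.90 ± 0.23. Dcn, given above, was the lower member. Usp29 was called lower by its brighter probe and higher by its dimmer one, each detected in 1 set alone, so it has no settled direction. Igf2 was not called, at 2.20, 2.20 and 2.25 against 2.03, 2.04 and 1.90.

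Single arrays set some of the spread. Over the 24547 probes detected on all 6 arrays, 90.3% varied more in the second set than in the first, and an SD above 1 was seen for 53 probes (0.216%) among first-set arrays and for 1135 (4.62%) among second-set arrays. At the 2 most variable first-set genes replicate 2 stood apart: Slc25a40 read -0.82, 9.10 and -0.99, and Rnf157 read -1.28, 5.94 and -1.18, at genes where the second set lay between -1.24 and 0.23. Both probes were saturated on 1 first-set array. A second probe of each gene did not stand apart on replicate 2, at -4.14, -4.33 and -4.61 for Slc25a40 and -2.32, -2.39 and -2.18 for Rnf157. These departures therefore belong to 1 probe of each gene. In the second set Pigt and Lars2, both saturated on all first-set arrays, read 8.0, 7.99 and 4.13 and 7.84, 7.72 and 4.22, low on replicate 3. Krt18, an epithelial keratin, was high on second-set replicate 1 only (-1.72 against -5.02 and -4.78). None of these 5 was called by its brightest probe. Dimmer probes were called lower for Pigt (-1.18) and higher for Slc25a40 (1.15).

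The gap between the cultures was also read on the treated arrays, although the exposures differed between sets. Of the 2294 genes higher in the second-set controls, 432 (18.8%) were also higher on all 6 treated second-set arrays than on all 12 treated first-set arrays, and 6 were lower on all of them. Of the 2126 lower genes, 461 (21.7%) were lower on all treated second-set arrays and 39 higher. Over all tested genes those shares were 7.19% higher and 8.33% lower. For the acute-phase list the treated arrays overlapped for 31 of the 35 tested members.

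The median level of the acute-phase list was followed over the exposures. In the first set it was 3.96 to 4.05 in controls, 3.94 to 4.03 after KBrO3 and 4.29 to 4.45 after KBrO3 with BPA at 4 hr, then 1.01 to 1.08 and 1.11 to 1.28 at 24 hr. In the second set it was -0.02 to 0.60 in controls, 2.85 to 3.17 at 4 hr of BPA and 0.96 to 1.99 at 24 hr. The untreated second-set arrays were the lowest of all 24, and the first-set arrays at 24 hr and the second-set arrays at 24 hr lay in one range. Saa3 went from 4.48 to 4.56 in first-set controls to 0.74 to 0.86 after KBrO3 at 24 hr, and from -4.62 to -3.41 in second-set controls to 0.22 to 0.92 after BPA at 4 hr. Il6 lay at 0.33 to 0.45 in first-set controls and 2.29 to 2.31 after KBrO3 at 4 hr, and at -5.25 to -4.74 in second-set controls and 0.37 to 0.96 after BPA at 4 hr. The interferon list median kept the order of the sets, although treated arrays of both sets overlapped for 27 of the 40 members: 4.25 to 4.28 in first-set controls and 3.86 to 4.48 across its treated arrays, against 2.73 to 3.18 in second-set controls and 3.15 to 3.59 across its treated arrays. These values are medians over the list on each array and carry no test.

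**Figure D5:**
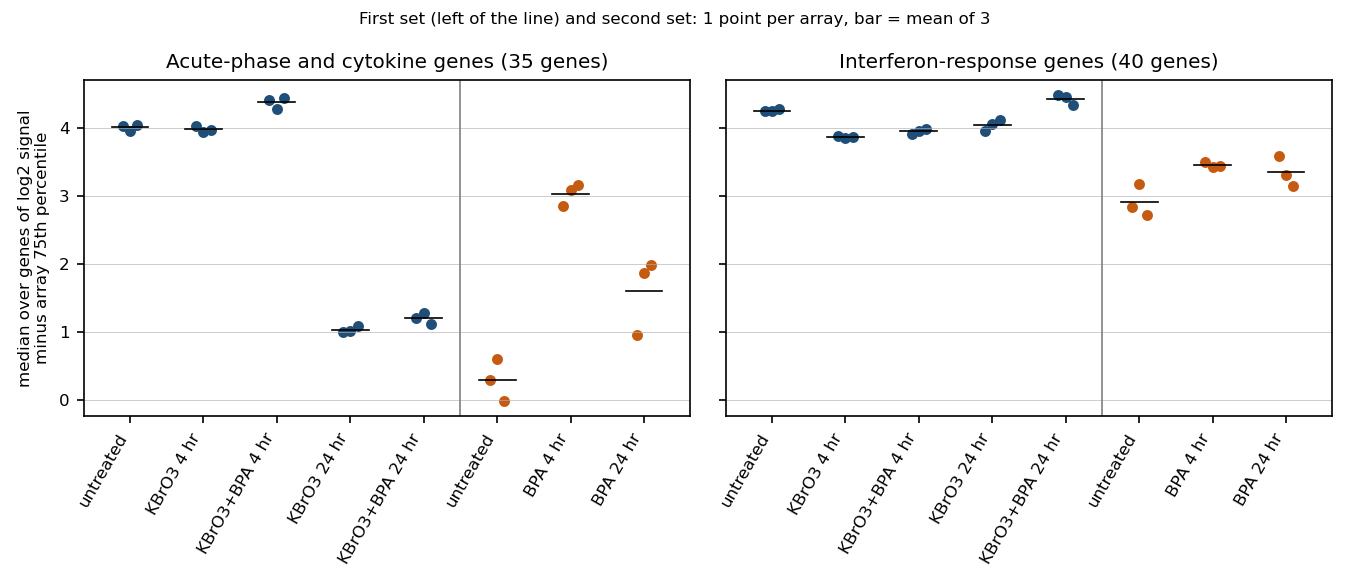
Median level of the acute-phase list and the interferon list on each of the 24 arrays, in log2 signal minus the array's 75th percentile, by set and exposure; points are arrays and bars are means of 3. The acute-phase median of the untreated second-set arrays (-0.02 to 0.60) is the lowest in the series, and that of the untreated first-set arrays (3.96 to 4.05) is among the highest.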

How the data were processed

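Total RNA from 24 cultures was labelled with Cy3 and hybridised to 1-colour Agilent mouse arrays, and 6 untreated arrays are described. The deposited files are the authors' Feature Extraction output, in which the intensity used is the background-subtracted processed signal of each spot, not normalized between arrays. Per the file headers, scanner G2505B and software version 9.5.3.1 gave the first set, and scanner G2505C and version 12.0.0.7 the second, whereas the submitters' processing notes name Agilent Feature Extraction 12.0. The series' value table, on the linear scale, was not needed, because it held the same processed values in all 1080432 cells compared.

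Spots with outlier flags were set aside, spots of a probe were averaged, and each array's 75th percentile over noncontrol spots was subtracted from log2 signal. Probes well above background on all 3 arrays of at least 1 control group were tested with lmFit and eBayes (limma 3.58.1, R 4.3.3) on the 6 control arrays, without covariates, as 30324 probes with Benjamini-Hochberg adjustment. A called gene had an adjusted p below 0.05 and a difference over 1.5-fold. The brightest probe stood for its gene. On simulated data with the means and spreads of these arrays, 2%, 32%, 62% and 74% of probes changed 1.5, 2, 3 and 5-fold were recovered, with 25 false calls over 30324 probes. Only a small part of the simulated probes was changed, the other probes had the same mean in both groups, and noise was independent between probes. In the data far more probes differed and the difference moved with signal, so these rates do not carry over to the comparison reported. A probe well above background on no array of 1 group and on all 3 of the other gives only a bound, set by the lowest signal that was well above background on each array. For a probe well above background on part of a group's arrays the estimated difference is given, and its size is less certain. The precision is limited by 3 arrays a group.

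The members and gene lists were chosen with earlier results of these data known. Named genes were the knocked-out gene, list members, the 12 largest called differences in each direction among genes detected on all 6 arrays, 6 genes with the smallest adjusted p detected in 1 set only in each direction, and 8 genes with the largest SD in each set, passing over symbols of the Gm and Rik kinds. Further members were named for their role after their values were seen. Probes were named through RefSeq accessions, symbols and synonyms (28694, 3489 and 1487 probes). Promoter sequences came from RefSeq (GRCm38.p6), and the share holding a motif was counted per gene. Samples of the 2 sets share replicate numbers, but the residuals of same-numbered arrays correlated at -0.12, -0.01 and 0.14, so the numbers do not pair them. Alternatives changed the scaling, the background correction, the filter, the probe summary, the threshold, the replicate block and the arrays used.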

Additional observations from a re-analysis of the deposited data

Results flagged for a closer look

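In 6 of 35 acute-phase genes (Bcl3, Ccl5, Cebpd, Cxcl12, Hp and Saa1) and 2 of 40 interferon genes (Dhx58 and Iigp1) every treated array lay below the untreated arrays in the first set and above them in the second. Over all tested genes 70 of 15517 did so and 14 the opposite. The treatments differed between the sets and the difference was not tested. Cebpd was at least 6.99 on untreated and 5.83 to 6.85 on treated first-set arrays, and at most 3.85 on untreated and 5.51 to 7.15 on treated second-set arrays. Hp was at least 7.74 on untreated and 0.52 to 7.55 on treated first-set arrays, and at most 2.49 on untreated and 3.23 to 4.56 on treated second-set arrays. Bcl3 went from at least 3.65 to between 1.20 and 2.35 in the first set and from at most 0.60 to between 1.86 and 3.17 in the second. For Dhx58 the shifts were small in the second set, from at most 1.54 to between 1.56 and 2.10.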

How the results depend on the processing

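Of genes called in the report, 2294 were higher and 2126 lower. Quantile normalisation gave 1311 lower genes, no filter on dim probes 3564, a filter on all 6 arrays 1494 higher, and a Bonferroni-adjusted p below 0.01 left 4 higher and 20 lower. Background correction by normexp on the median spot signal, used because second-set files hold no mean signal, left 0 genes called in limma (392 higher and 725 lower at an unadjusted p below 0.05 and over 1.5-fold). It was distorted by spots flagged as background outliers, its median over all tested probes shifted to -0.41, and its median replicate SD in the first set was 0.424. With those spots set aside, an alternative added after the data were seen, 1345 genes were higher. Leaving out 1 array gave 1052 to 2494 higher and 910 to 2606 lower genes, 30 to 33 acute-phase members lower with medians of -3.44 to -3.13, 25 to 35 interferon members with medians of -1.32 to -1.19, and a first-set SD of 0.0495 to 0.0765. The replicate block, on numbers that do not pair the arrays, gave 1803 higher and 1408 lower genes, with 32 acute-phase and 29 interferon members lower. The acute-phase median was -2.91 under quantile normalisation, -2.93 under cyclic loess, -2.05 under normexp and -2.24 with flagged spots set aside; 6 members passed the Bonferroni threshold and 0 of 35 were called under normexp (26 at an unadjusted p below 0.05). The interferon median was -0.91, -0.95 and -1.01 under quantile normalisation, cyclic loess and normexp, with 22 members called under quantile normalisation, 0 under normexp (24 unadjusted) and 0 past the Bonferroni threshold, where the lowest value was 0.0374. Under quantile normalisation the sign turned for B2m (0.053), Col1a1 (0.16), Col1a2 (0.41), Col3a1 (0.26), Cxcl12 (0.022), H2-K1 (0.020), Sparc (0.032) and Vim (0.14). Under normexp on all spots it turned for Drd5 (-0.60), Dusp4 (-0.063), Gper1 (-0.072), Mmp15 (-0.54), Nebl (-0.26), Nr3c2 (-0.060), Scn3b (-0.53), Slc6a14 (-0.23) and Uty (-0.18). Of 146 called genes named in the text, 107 stayed called wherever they were tested in settings other than normexp on all spots and Bonferroni. Fits of all 24 arrays, with and without the slide as a random block, kept all 146 calls. The series' value table equals the scanner values and gave no separate fit.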

Other observations

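Of 2126 genes lower in the second-set controls, 17 had all 18 treated arrays between both groups of controls. Single-array departures of over 2 log2 units, with the other replicates within 0.5 of each other, were found at 8, 10 and 8 probes on first-set replicates 1, 2 and 3, and at 61, 42 and 33 probes on second-set replicates 1, 2 and 3.

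Probes of a gene were called in opposite directions for 158 of 6822 genes with several tested probes. Flt1 was called lower by its 3 brighter probes and higher by a dim one that was not well above background on any first-set array, where its levels on second-set arrays lay below the first set's lowest detected signal. Mylk was called lower by its brightest probe (-1.06) and higher by another, which was well above background on second-set arrays only. Ndufb8 was lower by its brighter probe (-0.65) and higher by its dimmer one (0.64). For Nr3c1, the glucocorticoid receptor, the brightest probe was not called (0.08) and a dimmer one was called higher (1.30).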
